A study of Mus musculus with 9 samples.

Results

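The microglia of mice that had lost Chd8 in astrocytes were compared with those of control mice, both 3 days after lipopolysaccharide (LPS), a bacterial cell wall component that sets off inflammation. The comparison used 6 of the 9 libraries of the series: 3 labelled astrocyte cKO (conditional knockout) given LPS and 3 labelled control given LPS, with 3 control saline libraries kept in the fit for their estimate of the spread. All mice of the LPS groups received 5 mg/kg into the peritoneum at 2 to 3 months of age, and the brains were taken after 72 hours, per the labels' protocols. Cells of cortex and hippocampus (the tissue label reads cortex) were first stripped of astrocytes with beads against ACSA-2, an astrocyte surface antigen, and CD11b-bearing cells were then collected with beads. The sources used here do not name the Cre driver, the Chd8 alleles or the genotype of the controls. The cKO titles read saline where the genotype and treatment labels read LPS, and the column names of the deposited table read LPS, which was used. Whether the numbered samples of a group were separate mice is not stated, and p-values therefore measure a spread between samples that may be technical in part.

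Microglia are the resident macrophages of the brain. LPS given in the periphery reaches them mostly through cytokines and interferons, which astrocytes both make and answer to. Type I interferon binds the receptor subunits encoded by Ifnar1 and Ifnar2 and acts through a complex that holds Stat2 and Irf9 on genes whose promoters often hold an interferon-stimulated response element. CHD8 is a chromatin remodeller, and the gene was targeted here in astrocytes, not in the cells that were sorted. The question of the comparison is what that loss in one cell type does to gene expression in another during inflammation.

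Values below are normalized counts, the authors' gene counts divided by size factors, and are listed in the order of libraries 1, 2 and 3 of a group, control LPS first and cKO LPS after the word against. Differences are cKO LPS minus control LPS on the log2(value + 1) scale, with the 95% interval of a limma fit over all 9 libraries, or the same fit without control LPS 1 where stated. Libraries held 33661096 to 86571481 reads in the LPS groups and 10845937 to 34356433 in saline. At this depth and spread the median half-width of the interval was 0.57 log2 over all genes and 0.38 over the 6024 genes with a mean of at least 1000. Microglial genes were abundant in all 6 LPS libraries. Csf1r, the receptor for the microglial survival factor, stood at 349510, 326255 and 403276 in control LPS against 422763, 435073 and 329165 in cKO LPS, and Tmem119, a marker of resident microglia, at 57683, 61185 and 65237 against 61814, 62664 and 54762. Chd8 itself stood at 5507, 5408 and 5842 in control LPS against 5214, 6219 and 5453 in cKO LPS (difference 0.01, SE 0.16, and -0.00 without control LPS 1). Since astrocytes were targeted, this checks no genotype label.

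Control LPS 1 stood apart before any comparison. It carried astrocyte RNA, with the summed level of 17 astrocyte markers at 151316.7 against 7323 and 11724.9 in control LPS 2 and 3 and 7379 to 11726.0 in cKO LPS. On the first principal component (46.7% of the variance) it lay at -57.3, beside saline at -87.0 to -60.8, while the other LPS libraries lay at 21.5 to 78.6. It also held fewer neutrophil and more mural cell transcripts. The mean log2(value + 1) over the neutrophil list was 9.52 there against 11.73 and 11.06 in the other control LPS libraries. The mural cell list summed to 30671.4 there against 7178 and 6043. The list medians, and the differences of most genes with an estimate in the text, are therefore given with and without this library. For a few, such as Igtp, Top2a, Itgax and Lgals3, only the difference without it is printed. In bulk samples fewer cells of a type and less RNA per cell cannot be told apart. Sex is not given in the labels. Xist, read in female cells, stood at 35559 in control LPS 3 and 57619 in cKO LPS 3 and at 6.22 or less in the other 4 LPS libraries. Library 3 of each LPS group was thus not a repeat of the same sample as library 1 or 2. By this gene each LPS group mixed the sexes, and sex was not in the fit.

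No gene passed the test. Of 16575 genes tested, 0 (0%) had an adjusted p under 0.05 with limma and 0 with edgeR on the recovered reads, both with and without control LPS 1. At an unadjusted p under 0.05 limma held 263 genes (1.59%), 167 higher (1.01%) and 96 lower (0.579%) in cKO LPS, and 639 (3.86%) without control LPS 1, with 1.68% of all genes higher and 2.17% lower. The corresponding edgeR counts were 587 (3.54%) and 743 (4.48%). The authors' deposited table of this comparison called 4 of 22785 genes (0.0176%), namely Gdf15, Usp18 and Hsd11b1 lower and Gm7335 higher. The libraries of the 2 LPS groups did not overlap in 831 genes (5.01%), 447 of them higher (2.7%) and 384 lower (2.32%). Without control LPS 1 that share was 19.3%, with 8.73% higher and 10.6% lower. The median difference over all genes was -0.02 (-0.01 without control LPS 1), which the size-factor scaling holds near 0. Differences well under the median half-width of 0.57 log2 were not detectable in most genes. That interval is not adjusted for the number of genes, and larger differences also went uncalled. A difference of at least 1 log2 was reached by 860 of the 16575 genes, 215 higher and 645 lower. Of these, 0 passed the adjusted test. The counts include control LPS 1, which held astrocyte RNA, and were not made without it. The excess of lower genes therefore cannot be assigned to the genotype.

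**Figure D1:**
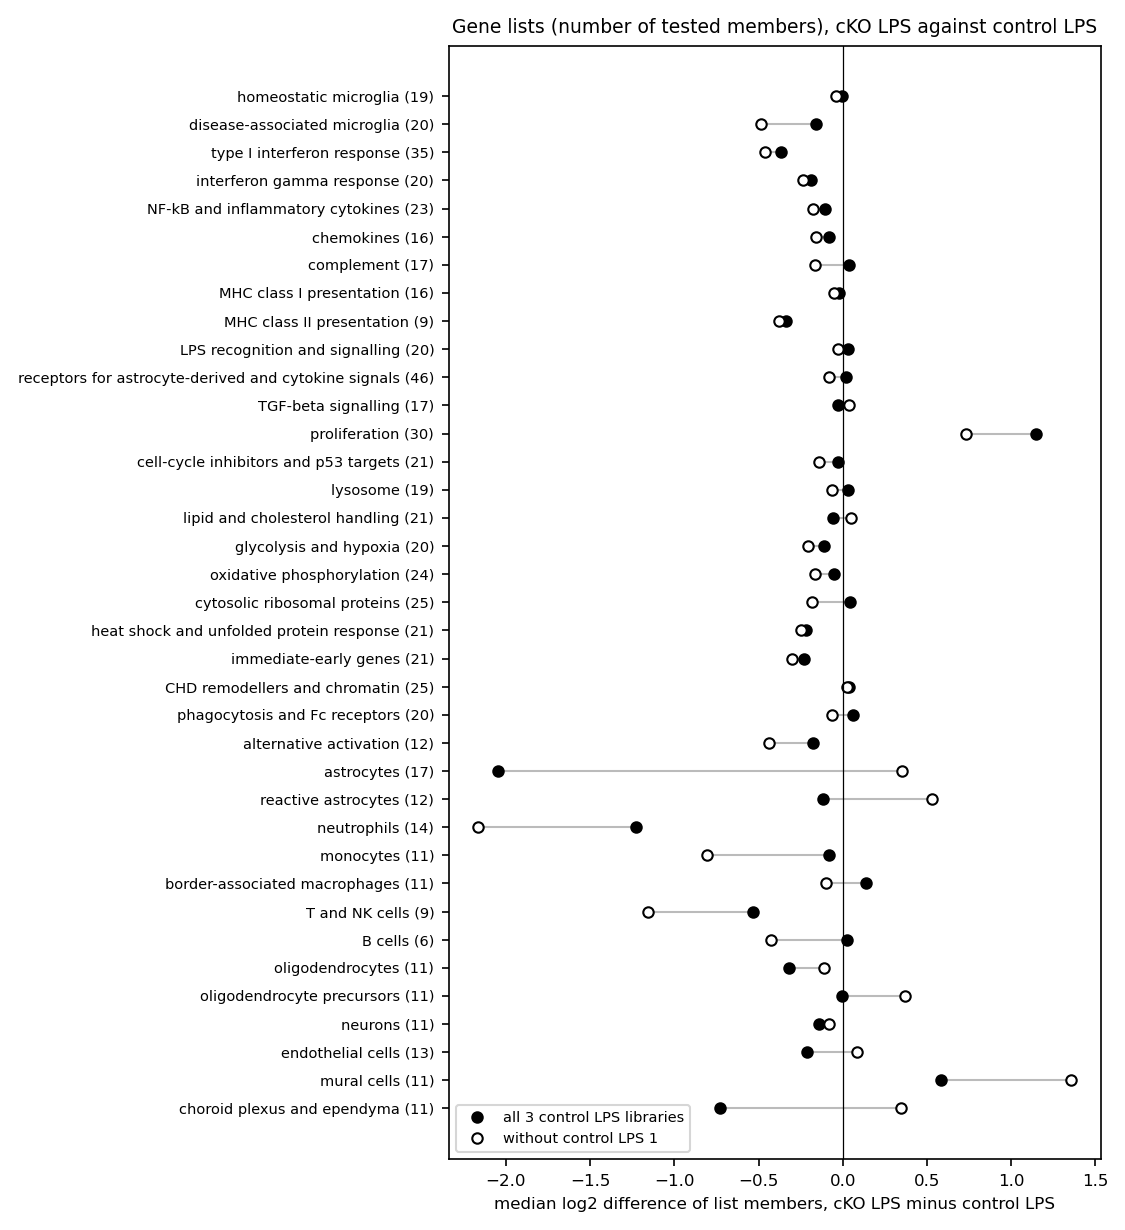
Median log2 difference between cKO LPS and control LPS (x axis, log2 units) over the tested members of each gene list with at least 6 of them (y axis, number of members in brackets), with all 3 control LPS libraries (filled) and without control LPS 1 (open). Proliferation lies to the right at 1.15 and 0.73, type I interferon to the left at -0.37 and -0.46 and neutrophils at -1.23 and -2.16, while the astrocyte list moves from -2.05 to 0.35 when control LPS 1 is left out.

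Genes induced by type I interferon lay lower in cKO LPS than in control LPS. Of 35 genes in the list, 33 had a negative difference and the list median was -0.37, or -0.46 without control LPS 1. Over the 6 fits that each left out 1 LPS library the median ran from -0.55 (without cKO LPS 3) to -0.22 (without control LPS 2). In 10 of the 35 all cKO libraries lay below all control libraries, against 2.32% of all tested genes, and in 0 did they lie above. None of the 35 passed the adjusted test. The members whose groups did not overlap were Usp18, Ifit1, Ifit2, Ifit3, Ifit3b, Isg15, Mx1, Bst2, Cmpk2 and Ddx58.

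Usp18, which encodes the protease that removes ISG15 from proteins and restrains signalling at the interferon receptor, stood at 803, 1118 and 828 in control LPS against 459, 432 and 558 in cKO LPS. The saline libraries held 181, 182 and 192, so the cKO values lay between the other groups with no overlap on either side. The difference was -0.91 (-1.32 to -0.51), and -1.0 (SE 0.20) without control LPS 1, and the adjusted p in the authors' deposited table was 0.0336. Usp18 lies on chromosome 6 from 121245906 to 121270917 (mm10, plus strand).

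The Ifit genes encode proteins that bind foreign RNA, and they form a cluster on chromosome 19. Ifit3 stood at 2279, 3142 and 2374 in control LPS against 1562, 1580 and 1642 in cKO LPS, a difference of -0.69 (-1.04 to -0.34). Ifit2 stood at 2360, 3746 and 2915 against 1702, 1755 and 1722, a difference of -0.77 (-1.19 to -0.36). In both genes the cKO libraries were tightly grouped beneath all controls, and control LPS 2 was the highest. Ifit1 stood at 577, 1027 and 559 against 434, 394 and 436 (-0.72, interval -1.31 to -0.13). Ifit3b, at 563, 689.8 and 509 against 361, 347 and 313, is a close copy of Ifit3, and the sources used here do not say how shared reads were divided, so the pair is uncertain singly. Without control LPS 1 the differences were -0.78 for Ifit3, -0.94 for Ifit2, -0.85 for Ifit1 and -0.80 for Ifit3b. With all libraries that of Ifit3b was -0.78.

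Mx1, named for an antiviral GTPase and annotated in this reference as a transcribed pseudogene, stood at 1494, 2017 and 1425 in control LPS against 1120, 1102 and 1180 in cKO LPS (-0.52, interval -0.90 to -0.13). Isg15, the ubiquitin-like protein that Usp18 removes, stood at 862, 1666 and 833 against 717, 556 and 745. Its difference of -0.67 (-1.37 to 0.03) rested in part on the high value of control LPS 2. Bst2, which tethers budding virus to the cell surface, stood at 4137, 3945 and 3799 against 3216, 2720 and 3313 (-0.37). Ddx58, the cytosolic RNA sensor RIG-I, stood at 2481, 2853 and 2915 against 2140, 2146 and 2397 (-0.30), the smallest difference among the 10 genes, and Cmpk2, a mitochondrial nucleotide kinase, at 433, 521 and 350.3 against 307, 293 and 269 (-0.57). With control LPS 1 left out the differences were -0.58 for Mx1, -0.82 for Isg15, -0.33 for Bst2, -0.37 for Ddx58 and -0.56 for Cmpk2.

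The list as a whole split by cKO library. In cKO LPS 1, 31 of the 35 genes lay below every control library, and in cKO LPS 2, 32 did. In cKO LPS 3 only 11 did and 10 lay above every control library. That library was also the only cKO library with high Xist and held the most reads (86571481). The part of either was not tested. Over all tested genes the shares below every control were 17.5%, 18.7% and 21.9% for the 3 cKO libraries, and 20.7% lay above every control in cKO LPS 3. Both cKO LPS 1 and cKO LPS 2 lay below every control in 29 of the 35 genes, against 7.52% of all genes. The oligoadenylate synthetase genes, whose products activate an RNA-degrading enzyme, are an example. Oas1a stood at 804, 1211 and 996 in control LPS against 651, 559 and 1386 in cKO LPS, and Oas2 at 1497, 1869 and 1206 against 903, 996 and 1889. In both, cKO LPS 3 exceeded all 3 controls while the other cKO libraries lay under them. The differences were -0.31 and -0.33, and -0.46 and -0.33 without control LPS 1. Eif2ak2, the kinase that shuts down translation on double-stranded RNA, stood at 2154, 2434 and 2068 against 2271, 1960 and 3524 (0.18) and Ifi27l2a at 1691, 1357 and 2124 against 2183, 1275 and 2842 (0.23). These 2 were the positive members, and both turned negative without cKO LPS 3, while leaving out control LPS 1 gave 0.16 and 0.23.

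**Figure D2:**
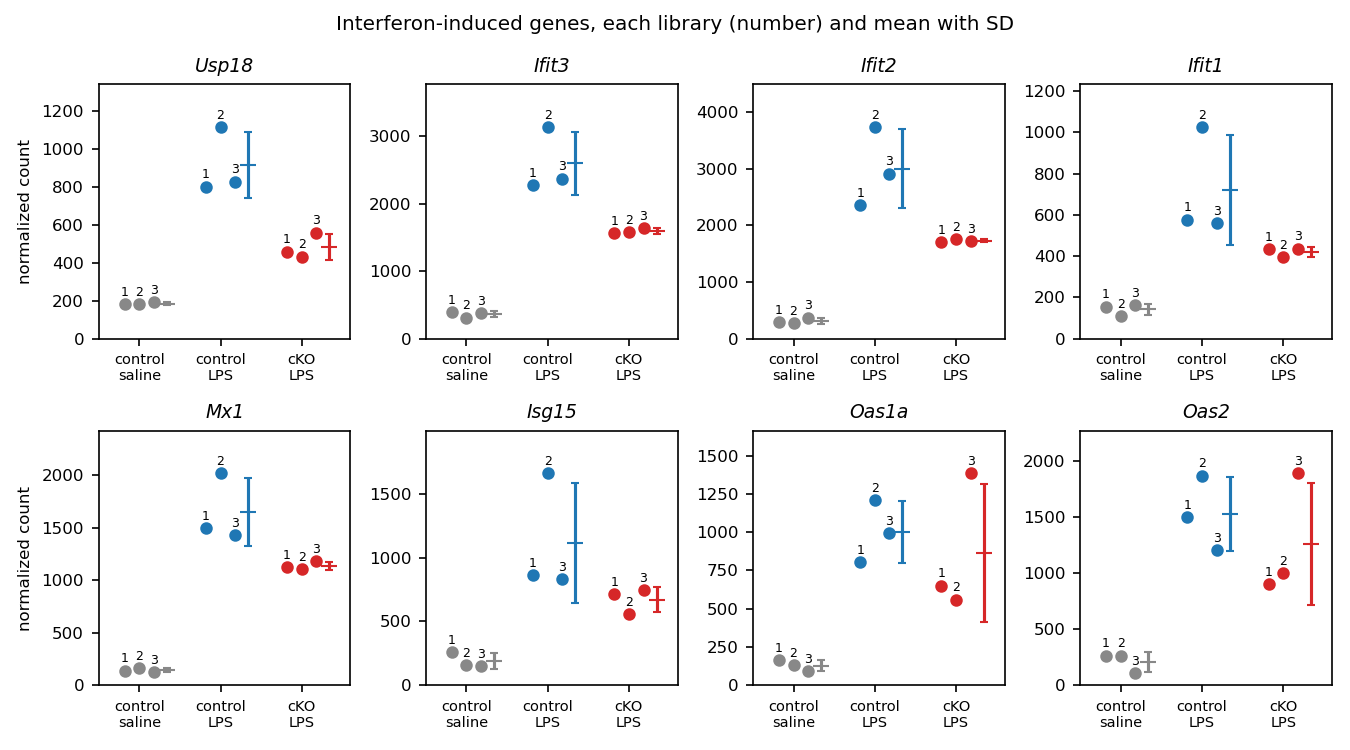
Normalized counts (y axis, from 0) of 8 interferon-induced genes in each library, numbered within its group, with the mean and SD of 3 libraries beside the points. In Usp18, Ifit3, Ifit2, Ifit1, Mx1 and Isg15 all cKO LPS libraries lie below all control LPS libraries, whereas in Oas1a and Oas2 cKO LPS 3 lies at 1386 and 1889, above every control.

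The components Stat2 and Irf9, which carry the signal, had smaller differences. Stat2 stood at 3710, 4180 and 2990 in control LPS against 2618, 2831 and 3615 in cKO LPS (-0.26) and Irf9 at 2364, 2516 and 2690 against 2243, 2236 and 2759 (-0.07), with groups that overlapped in both. Irf7, which amplifies interferon production, stood at 2746, 4378 and 2198 against 1960, 1888 and 2586 (-0.49), and cKO LPS 3 lay within the control range. The receptor gene Ifnar1 stood at 5622, 8617 and 6575 against 7273, 7620 and 8231 (0.17). The fit without control LPS 1 gave -0.24 for Stat2, -0.12 for Irf9, -0.55 for Irf7 and 0.03 for Ifnar1. Ifnb1, the interferon beta gene, was low throughout, at 18.6, 59.1 and 20.2 against 16.2, 19.6 and 8.06. The same list had a median of 2.29 for control LPS against control saline, a comparison that shares the control LPS libraries.

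The promoters of 3 of these genes are shown because each holds the letters of an interferon-stimulated response element. The sequences are from RefSeq on GRCm38.p6 (mm10) and give the 250 bases before the start that the promoter table uses, 5′ to 3′ on the gene's strand, with each match to GAAANNGAAA on either strand in capitals (TTTCNNTTTC where it lies on the other strand, overlapping matches joined into one run). Ifit1 is read from chr19:34640639-34640888 (plus strand), Ifit3 from chr19:34583279-34583528 (plus strand) and Isg15 from chr4:156200819-156201068 (minus strand).
Ifit1: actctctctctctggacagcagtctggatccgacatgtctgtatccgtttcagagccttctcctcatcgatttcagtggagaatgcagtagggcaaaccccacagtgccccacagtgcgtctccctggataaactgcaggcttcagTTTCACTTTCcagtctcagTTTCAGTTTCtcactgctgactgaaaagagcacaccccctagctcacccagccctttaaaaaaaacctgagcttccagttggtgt
Ifit3: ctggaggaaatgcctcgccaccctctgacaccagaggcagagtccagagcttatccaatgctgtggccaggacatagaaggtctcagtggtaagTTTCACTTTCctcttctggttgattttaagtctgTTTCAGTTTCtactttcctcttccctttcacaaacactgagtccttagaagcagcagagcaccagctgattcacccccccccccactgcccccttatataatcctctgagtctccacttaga
Isg15: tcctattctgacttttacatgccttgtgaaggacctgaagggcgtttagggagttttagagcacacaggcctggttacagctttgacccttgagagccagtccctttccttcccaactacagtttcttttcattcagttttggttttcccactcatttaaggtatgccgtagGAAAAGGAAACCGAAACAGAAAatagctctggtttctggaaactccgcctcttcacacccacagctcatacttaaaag
Ifit1 and Ifit3 each held 2 matches, the first of them beginning 104 and 156 bases before the start, and Isg15 held 3 overlapping ones from 78 bases before it. In windows of 250 bases before to 50 bases after the start, 17 of the 25 list members with a promoter in the table had at least 1 match (68%), against 3.99% of 27025 genes with one. Among those whose groups did not overlap 6 of 8 had a match, and among the remaining members 11 of 17 did (64.7%). The promoters of Ifit2 and Cmpk2 had none in these windows. A match is a description of the letters and not a measured site.

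Genes of the interferon gamma response lay slightly lower, with 18 of 20 negative, a median of -0.19 (-0.24 without control LPS 1) and 2 of 20 non-overlapping, both lower, against 2.32% of all genes lower. The median was -0.07 without control LPS 2 and -0.34 without cKO LPS 1. The 2 non-overlapping genes were Cxcl9 and Igtp. Cxcl9, a chemokine for T cells, stood at 95, 73.1 and 66.2 in control LPS against 37.8, 60.3 and 19.5 in cKO LPS. Igtp, an immunity-related GTPase, stood at 1519, 1853 and 1600 against 1420, 1439 and 1503. Irf1, a transcription factor of both interferon pathways, stood at 5966, 8198 and 9733 against 5199, 7209 and 4861 (-0.46), with cKO LPS 2 inside the control range. Genes of MHC class I presentation had a median of -0.02 (-0.05 without control LPS 1) and those of class II -0.34 (-0.38). Of these, 0 of 16 and 0 of 9 were non-overlapping, against 5.01% of all genes. The class II median was -0.02 without cKO LPS 3, -0.21 without control LPS 2 and -0.51 without cKO LPS 2. Cd74, the class II invariant chain, stood at 5092, 8298 and 5405 against 3864, 5543 and 4393 (-0.43, interval -1.25 to 0.40). The fit without control LPS 1 gave -0.95 for Cxcl9, -0.24 for Igtp, -0.66 for Irf1 and -0.56 for Cd74. Cxcl9 differed by -1.10 with all libraries.

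Genes of cell division were higher in cKO LPS, most of them in 2 of its 3 libraries. All 30 members had a positive difference, with a median of 1.15, and 17 of the 30 had an unadjusted p under 0.05 (background 1.01% higher). However, 0 passed the adjusted test. Only Cenpf and Aurka were free of overlap, against 2.7% of all genes higher without overlap. Without control LPS 1 the median was 0.73, 26 of 30 stayed positive and 4 had an unadjusted p under 0.05 (background 1.68% higher). Cenpf, a kinetochore protein, stood at 399.5, 732 and 664 in control LPS against 1815, 929.6 and 1654 in cKO LPS, a difference of 1.28 (0.61 to 1.95) that was 1.01 without control LPS 1. Aurka, a kinase of the mitotic spindle, stood at 139, 305 and 216 against 674, 309 and 675 (1.31, interval 0.43 to 2.19). In Aurka the closest libraries, control LPS 2 and cKO LPS 2, were nearly level.

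Mki67, the common marker of cycling cells, stood at 1393, 5091 and 3122 in control LPS against 8670, 4360 and 11225 in cKO LPS. cKO LPS 1 and 3 lay above all controls and cKO LPS 2 below the highest of them, so the groups overlapped despite a difference of 1.42 (0.39 to 2.45). Top2a, the topoisomerase of dividing cells, gave 935, 3755 and 1940 against 5482, 2343 and 7079, and Cenpe, a kinetochore motor, 330.3, 813 and 666 against 1670, 784 and 1847. Both show the same order of libraries, with the lowest value in control LPS 1. Without that library the differences were 1.01 for Aurka, 0.91 for Mki67, 0.74 for Top2a and 0.87 for Cenpe. Cenpe differed by 1.25 with all libraries.

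Within the list, members of mitosis and members of DNA synthesis parted, a split made after the values were seen and therefore given without a test. The 10 genes of DNA synthesis had differences from 0.15 to 1.07, with a median of 0.43 that was 0.02 without control LPS 1. The other 20 ranged from 1.05 to 1.42, with a median of 1.22 that was 0.83 without that library. cKO LPS 1 exceeded every control library in 20 of the 20 genes of mitosis and other steps and in 0 of the 10 of DNA synthesis. cKO LPS 3 exceeded every control in all 30. Over all tested genes those shares were 15.5% for cKO LPS 1 and 20.7% for cKO LPS 3. Mcm2, a subunit of the replicative helicase, stood at 532, 1786 and 528 in control LPS against 678, 496 and 2638 in cKO LPS, and Pcna, the polymerase clamp, at 1976, 4221 and 2660 against 2562, 2168 and 6090. For these 2 genes cKO LPS 1 and 2 lay under control LPS 2, and cKO LPS 3 alone stood above every control. Their differences were 0.27 and 0.20, and -0.02 and -0.05 without control LPS 1.

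**Figure D3:**
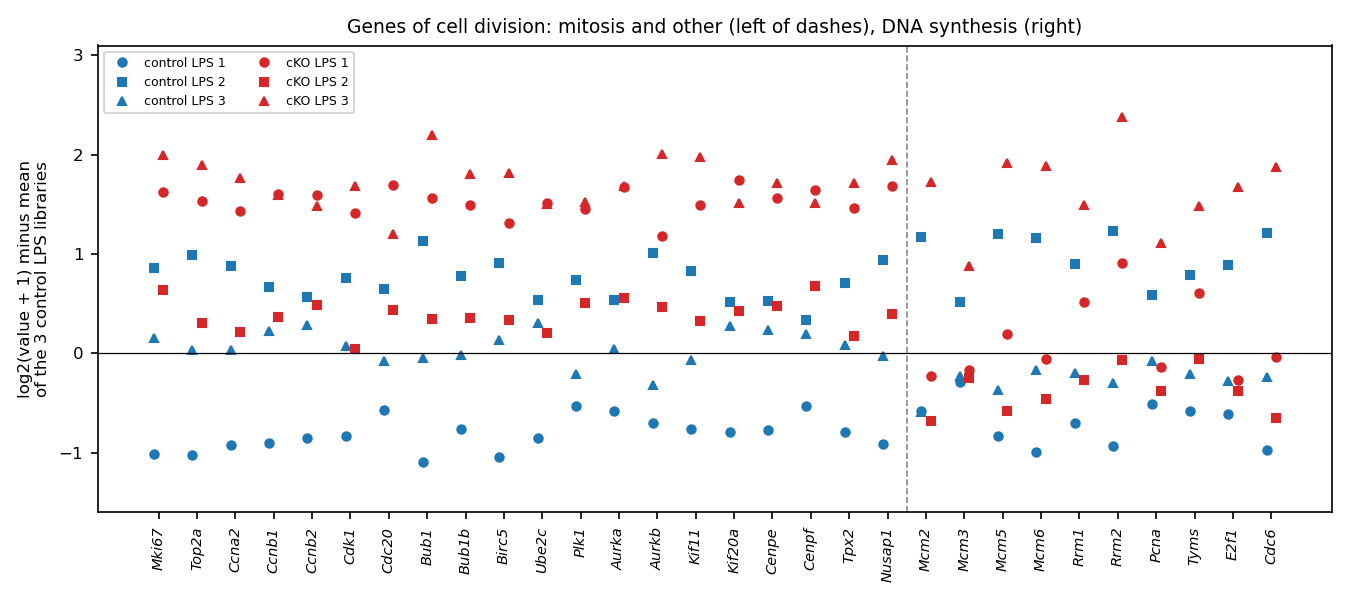
log2(value + 1) of the 30 genes of cell division (x axis) in the 6 LPS libraries, minus the mean of the 3 control LPS libraries (y axis, log2 units), with colour for the group and symbol for the library. Left of the dashed line cKO LPS 1 and 3 lie above all controls and cKO LPS 2 below the highest control in all but Cenpf and Aurka, and right of it only cKO LPS 3 stands above every control.

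Among 21 tested inhibitors of the cell cycle and targets of the tumour suppressor Trp53, the median was -0.03 (-0.14 without control LPS 1). Of the 21, 0 were non-overlapping, against 5.01% of all genes. Cdkn2a, a cell-cycle inhibitor locus, stood at 25.8, 40.6 and 21.1 in control LPS against 102, 39.1 and 110.4 in cKO LPS (1.41, interval 0.30 to 2.51), and Cdkn2c, an inhibitor of the same family, at 290.3, 547 and 386 against 1078, 421 and 968 (0.94). In both, cKO LPS 1 and 3 lay above all controls and cKO LPS 2 below control LPS 2. Of the genes with the smallest p among those higher in cKO LPS, Iqgap3 and Arhgef39 also had their highest values in cKO LPS 1 and 3. Iqgap3, a scaffold protein of dividing cells, stood at 1217, 2063 and 1475 against 2873, 2157 and 3248 (0.81, interval 0.34 to 1.29). Arhgef39, a guanine nucleotide exchange factor, stood at 217, 391 and 223 against 763, 396 and 832 (1.24), with cKO LPS 2 just over control LPS 2. Leaving out control LPS 1 gave 1.34 for Cdkn2a, 0.72 for Cdkn2c, 0.64 for Iqgap3 and 1.09 for Arhgef39.

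Markers of other cells moved with these groups. Of 14 neutrophil markers 13 were lower in cKO LPS, with a median of -1.23, or -2.16 without control LPS 1 and -0.63 without control LPS 2. Camp, Ltf, Mpo and Ngp, all of granules, were lower without overlap (4 of 14, against 2.32% of all genes), and 11 of 14 were so without control LPS 1 (against 10.6%). Ngp, the neutrophilic granule protein, stood at 1691, 6764 and 5246 in control LPS against 948, 1296 and 306 in cKO LPS (-2.44, interval -4.01 to -0.87). Ltf, lactoferrin, stood at 1166, 4955 and 3707 against 762, 999.8 and 75.5 (-2.84), Camp, cathelicidin, at 241, 732 and 420.2 against 140.5, 123 and 6.37 (-3.06), and Mpo, the peroxidase, at 367, 221 and 157 against 156, 45.7 and 6.37 (-2.63). In all 4, cKO LPS 3 was the lowest of the 6 libraries, and without control LPS 1 the differences were -3.04 for Ngp, -3.46 for Ltf, -3.46 for Camp and -2.31 for Mpo. S100a8, a calprotectin subunit, stood at 1971, 22705 and 13749 against 2156, 4969 and 4630, so control LPS 1 lay below every cKO library while the other controls lay far above, and its difference went from -1.21 to -2.27 without control LPS 1. All but Elane, at 0 in cKO LPS 3, had reads in every LPS library. The mean log2(value + 1) over the list was 9.52 to 11.73 in control LPS and 8.57 to 9.82 in cKO LPS. Its part in the interferon and division results was not tested.

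Monocyte markers had a median of -0.08 that became -0.81 without control LPS 1, with 11 of 11 then negative, and 0.22 without control LPS 2. Ly6c2, of inflammatory monocytes, stood at 119, 544 and 474 in control LPS against 120, 188 and 168 in cKO LPS (-1.0, and -1.70 without control LPS 1). Markers of T and NK cells moved from -0.54 to -1.16, with control LPS 3 highest. Their median was 0.23 in the highest of the fits leaving out 1 LPS library, so its sign turned. The T cell genes Cd3d, Cd3e, Cd3g and Cd8a were below the filter of a mean of 10. Mural cell markers went the other way, from 0.58 to 1.36. With all libraries 0 of 11 were free of overlap, against 5.01% of all genes. Without control LPS 1 11 of 11 were positive and 9 of 11 higher without overlap, against 8.73% of all genes. The mural median was 0.08 without control LPS 3, 0.29 without cKO LPS 1 and 0.30 without control LPS 2. Rgs5, a pericyte marker, stood at 8442, 2222 and 1731 against 10758, 4395 and 4870, and Pdgfrb, the pericyte growth factor receptor, at 3549, 732 and 609 against 2406, 1233 and 1639. In both, control LPS 1 lay with the cKO libraries and control LPS 2 and 3 beneath them all. The difference went from 0.94 to 1.64 for Rgs5 and from 0.54 to 1.34 for Pdgfrb when control LPS 1 was left out.

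Astrocyte markers were lower in 17 of 17 cases at a median of -2.05, and without control LPS 1 the median was 0.35 with 13 of 17 positive. Slc1a2, the astrocyte glutamate transporter, stood at 34074, 102 and 183 in control LPS against 204, 180.2 and 209 in cKO LPS, and Gfap, the astrocyte filament, at 1367, 71.6 and 62.5 against 125, 89.7 and 99.8. Their differences turned from -2.12 to 0.53 and from -0.82 to 0.63 when control LPS 1 was left out. Choroid plexus markers turned likewise, from -0.73 to 0.35, and endothelial markers from -0.21 to 0.08. Reactive astrocyte genes moved from -0.12 to 0.53. Oligodendrocyte markers lay at -0.32 and -0.11 and neuronal ones at -0.14 and -0.08, while precursors of oligodendrocytes lay at -0.00 and 0.37. Border-associated macrophages lay at 0.14 and -0.10, B cells at 0.03 and -0.43, and the 2 tested erythroid genes at 0.11 and -0.41. The filter on low values left 9 of 14 genes of T and NK cells, 6 of 9 of B cells, 2 of 7 of erythroid cells, 12 of 13 of reactive astrocytes and 11 of 12 of neurons.

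**Figure D4:**
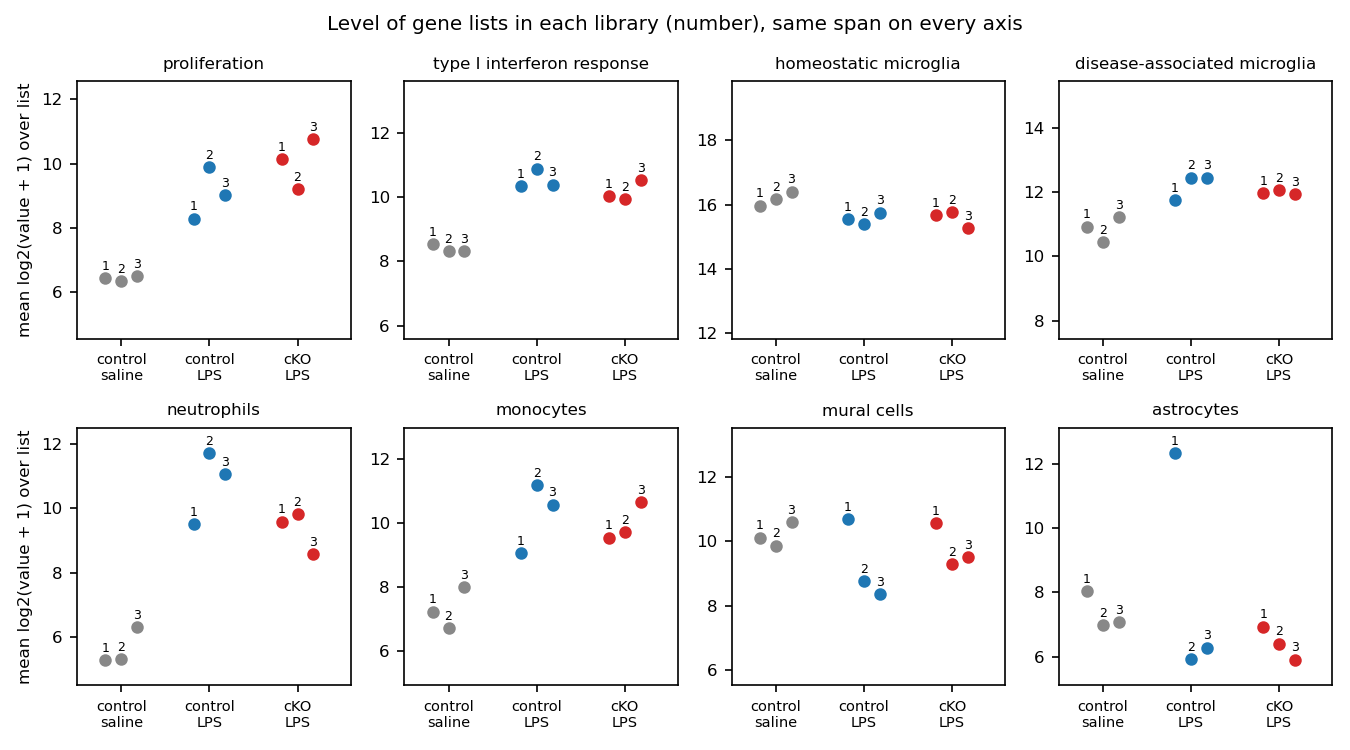
Mean log2(value + 1) over the members of 8 gene lists (y axis, the same span in every panel) in each library, numbered within its group. The interferon, neutrophil and proliferation lists overlap between control LPS and cKO LPS, with cKO LPS 3 at 10.53 for interferon, and control LPS 1 stands alone at 12.33 for astrocytes.

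Leaving out control LPS 1 and using DESeq2 in place of limma gave 139 calls among 17721 genes (0.784%), 47 higher (0.265%) and 92 lower (0.519%), where limma and edgeR without that library gave 0. Of the 139 genes 112 were in no list. Among the listed ones 8 neutrophil and 3 monocyte markers were called lower and 7 mural markers higher, beside Usp18, Ifit2 and Ifit3 of the interferon list, Tnf, and Cenpf of the division list. The remaining listed calls were Atp1b2 of the astrocyte list, S1pr3 of reactive astrocytes and Meg3 of neurons, all higher, and Steap4 of reactive astrocytes, which was lower. In 111 of the 139 genes control LPS 1 lay within or beyond the range of the cKO libraries, on their side. Anxa1, a phospholipid-binding protein abundant in neutrophils, is an example, at 464, 4589 and 2912 in control LPS against 497, 906 and 874 in cKO LPS, as is Cd177, a neutrophil surface protein, at 266, 1950 and 1879 against 249.7, 605 and 366. The groups were free of overlap with all 3 controls in only 28 of the 139.

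Genes of resident microglial identity were near level between the groups. The 19 homeostatic genes had a median of -0.00, or -0.04 without control LPS 1, with 9 higher and 10 lower. Of the 19, 0 were non-overlapping, against 5.01% of all genes. Leaving out 1 LPS library at a time gave medians of -0.08 to 0.14. P2ry12, which senses nucleotides in resting microglia, was at 37749.9, 33886 and 61039 in control LPS against 47958, 46518 and 30213 in cKO LPS, an interval of -0.81 to 0.67 for the difference. Cx3cr1, the fractalkine receptor, stood at 129610.4, 113265 and 121083 against 126545, 164736 and 124566 (-0.40 to 0.76), and Sall1, a transcription factor of microglial identity, at 25032, 20061 and 26095 against 23693, 34347 and 27059.7 (-0.18 to 0.68). The differences were -0.07, 0.18 and 0.25, and -0.16, 0.23 and 0.29 without control LPS 1. Intervals of this width do not show that the groups are alike. In 11 of the 19 genes cKO LPS 3 lay below every control, against 21.9% of all tested genes. In 8 of them cKO LPS 2 lay above every control, against 19.6% of all tested genes.

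Genes of disease-associated microglia, the state reached around damage and plaques, had a median of -0.16. Of the 20, 0 were non-overlapping, against 5.01% of all genes. Without control LPS 1 the median was -0.48 and 8 of 20 were lower without overlap, against 10.6% of all genes, while the median was 0.01 without control LPS 3. Axl, a receptor for dying cells, stood at 5480, 7084 and 8414 in control LPS against 5075, 5627 and 3635 in cKO LPS (-0.55, interval -1.13 to 0.03). Itgax, an integrin, stood at 3901, 6286 and 8736 against 4647, 5637 and 2783, Cst7, a cystatin, at 836, 2660 and 1754 against 1318, 1028 and 662, and Lgals3, a galectin also made by monocytes, at 414, 2364 and 2053 against 704, 1154 and 1458. In each of the 4 control LPS 1 was the lowest control. Without it the differences were -0.72 for Axl, -0.83 for Itgax, -1.16 for Cst7 and -1.06 for Lgals3. Cst7 differed by -0.71 with all libraries. Leaving out single libraries gave -0.83 to -0.23 for Itgax and -1.06 to 0.20 for Lgals3. Apoe, the lipid carrier, stood at 106184, 297393 and 182347 against 198736, 171898 and 192286 (0.06, and -0.31 without control LPS 1), and Trem2, the lipid-sensing receptor of this state, at 29545, 25055 and 37037 against 38212, 38724 and 25237 (0.15, and 0.13 without it).

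Among 23 genes of NF-kB and inflammatory cytokines the median was -0.11 (-0.18 without control LPS 1 and -0.01 without control LPS 2), with 18 negative, and 1 gene lay free of overlap in each direction (2.7% of all genes higher, 2.32% lower). Tnf, the cytokine that microglia release early on LPS, stood at 16464, 32334 and 20826 in control LPS against 12729, 12953 and 5776 in cKO LPS. All cKO libraries lay below all controls, and also below the saline libraries at 21956, 23284 and 20854. The difference was -1.18 (-1.93 to -0.43), and -1.4 without control LPS 1, where DESeq2 alone called it at adjusted p = 0.0225. Saa3, an acute-phase serum amyloid, went the other way at 7183, 65024 and 45731 against 92608, 72909 and 179348 (1.94, interval 0.11 to 3.78), and the difference was 0.97 without control LPS 1, the lowest control by far. Il1b stood at 40307, 94652 and 53063 against 69186, 51332 and 51936 (-0.04, and -0.32 without it). Lcn2, an iron-sequestering acute-phase protein, stood at 1191, 9641 and 8130 against 15019, 5463 and 25613 (1.5, and 0.53 without control LPS 1).

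Chemokine genes had a median of -0.08 (-0.16 without control LPS 1), with 2 of 16 non-overlapping against 5.01% of all genes. Ccl12, which attracts monocytes, stood at 3534, 10205 and 3871 in control LPS against 3389, 2932 and 2790 in cKO LPS (-0.78), lower in all cKO libraries though close to control LPS 1. Ccl24, which attracts eosinophils, was higher at 132, 85.7 and 131 against 237, 250.3 and 156 (0.87, interval 0.08 to 1.67), and Ccl22, which attracts regulatory T cells, stood at 88.8, 57.6 and 65.3 against 173, 208 and 84 with 1 overlapping library. Without control LPS 1 the differences were -1.05 for Ccl12, 0.98 for Ccl24 and 1.23 for Ccl22. Ccl22 differed by 1.05 (interval -0.01 to 2.11) with all libraries. Complement genes had a median of 0.04, or -0.17 without control LPS 1, with C3 at 3331, 10242 and 5824 against 6680, 6331 and 12588 (0.47, and 0.07 without it). Genes that recognise LPS and pass its signal had a median of 0.03 (-0.03 without control LPS 1). Of the 20, 0 were non-overlapping, against 5.01% of all genes.

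A stress cytokine, Gdf15, and 3 stress-response genes lay lower in cKO LPS without overlap. Gdf15, a secreted member of the TGF-beta superfamily released by stressed cells, had the smallest p of all genes in limma. It stood at 641, 883 and 933 in control LPS against 409.7, 348 and 329 in cKO LPS, beside 549.9, 542 and 346 in saline, so the cKO libraries lay under every control LPS library and within or below the saline range. The difference was -1.16 (-1.67 to -0.65), or -1.33 (SE 0.23) without control LPS 1, and the adjusted p in the authors' deposited table was 0.0265. Ddit3, the stress transcription factor CHOP, stood at 1516, 1674 and 1877 against 1185, 1195 and 1232 (-0.48, interval -0.77 to -0.20). The cKO libraries were close to each other and under all controls, and saline held more, at 2691, 2663 and 2198. Hspa5, the chaperone BiP of the endoplasmic reticulum, stood at 36253, 42549 and 34268 against 27796, 27019.8 and 33303, and Dnaja1, a co-chaperone, at 2438, 2832 and 2288 against 1698, 1748 and 2271. In both, cKO LPS 3 lay only just under the lowest control. Hspa5 and Dnaja1 differed by -0.36 and -0.41 with all libraries. With control LPS 1 left out the differences were -0.56 for Ddit3, -0.38 for Hspa5 and -0.43 for Dnaja1. These 3 were the non-overlapping members of 21 genes of heat shock and the unfolded protein response, against 2.32% of all genes lower. Of the 21, 18 were negative, at a median of -0.22 (-0.25 without control LPS 1 and -0.15 without control LPS 2). Of the 21 genes, cKO LPS 3 lay below every control in 7 and above every control in 5. Over all tested genes those shares were 21.9% and 20.7%. For cKO LPS 1 the counts were 10 below and 1 above (17.5% and 15.5% of all genes). For cKO LPS 2 they were 11 below and 2 above (18.7% and 19.6% of all genes).

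Hsd11b1, the enzyme that regenerates active glucocorticoid, stood at 366, 401 and 369.7 in control LPS against 115, 84.8 and 188 in cKO LPS, with 2.96, 2.77 and 0 in saline. The 3 controls were nearly equal and the cKO libraries spread below them, a difference of -1.62 (-2.87 to -0.38) and an adjusted p of 0.044 in the authors' deposited table. Chst2, a sulfotransferase of surface glycans, had a like arrangement at 1785, 1843 and 1822 against 774, 1150 and 456 against 259.6, 173 and 273 in saline (-1.29, interval -1.99 to -0.60). Col5a1, a collagen chain, stood at 117, 208 and 119.5 against 53, 33.4 and 64.5 (-1.54). Arhgap27os3, a transcript antisense to Arhgap27, stood at 933, 888 and 970.1 against 390.3, 372 and 254 (-1.48), and the sources used here do not say whether the counting used the strand. Higher in cKO LPS with little spread were Arl5a, a small GTPase of the Golgi, at 1153, 1114 and 1171 against 1482, 1751 and 1695 (0.52, interval 0.27 to 0.77), and Myl2, a myosin light chain, at 183, 154 and 148 against 285, 295 and 230.5 (0.74). Leaving out control LPS 1 gave -1.65 for Hsd11b1, -1.31 for Chst2, -1.68 for Col5a1, -1.48 for Arhgap27os3, 0.52 for Arl5a and 0.83 for Myl2.

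Among the largest differences that also held without control LPS 1 were genes that differed strongly between libraries of a single group. Perp, a cell-junction protein, stood at 959.5, 446 and 346 in saline and 539.8, 70.2 and 133 in control LPS against 1133, 1191 and 877 in cKO LPS. H60b, a ligand of an NK cell receptor, stood at 187, 126 and 6.42 in saline and 101, 1.48 and 0 against 215, 254 and 134, and Naip3, annotated as a pseudogene, at 269.5, 329.8 and 3.21 in saline and 165, 5.91 and 6.44 against 416, 522 and 206. In H60b and Naip3 saline 3 and control LPS 2 and 3 were all at or near 0, so the low state crossed the LPS and saline groups. Arsb, a lysosomal sulfatase, stood at 60347, 75188 and 16409 in saline and 30194, 10474 and 18268 against 61190, 68348 and 39673, with the same 3 libraries lowest. Perp and H60b lie on chromosome 10, starting at 18845071 and 22273474, and Arsb, Naip3 and Naip1 lie on chromosome 13, starting at 93771679, 100340005 and 100407770. Reads of the similar Naip genes could be shared, so Naip3 and Naip1 (65.7, 22.2 and 12.9 against 151, 142 and 71.7) are uncertain singly. The differences with and without control LPS 1 were 2.61 and 3.44 for Perp, 4.95 and 6.95 for H60b, 4.12 and 5.63 for Naip3 and 1.61 and 1.99 for Arsb.

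Gm7335, the 1 gene called higher in the authors' deposited table, stood at 9.77, 14.8 and 11 in control LPS against 236, 266 and 19.9 in cKO LPS, so cKO LPS 1 and 2 carried the difference (3.11, and 2.99 without control LPS 1). It is annotated as a pseudogene on chromosome 17, and the reads it shares with other genes are not known. The stretch that the authors' table gives for it is far longer than the annotated gene. Its reads may therefore come from outside that gene, and the call is uncertain. Ncoa4-ps, a pseudogene named after its values were seen, was the only gene called by limma in any alternative. It stood at 7.9, 6.93 and 706 in saline and 286, 588 and 458 in control LPS against 9.73, 10.6 and 9.34 in cKO LPS, so saline 3 differed from the other saline libraries by more than the LPS groups differed. Ifi44 of the interferon list was high in 1 library of each LPS group, at 92.3, 2120 and 75.4 against 109, 45.7 and 2084. Xlr3b, an X-linked gene, stood at 43.5, 5.91 and 46 against 271, 61.2 and 70.5. Cyp4f15, at 1196, 2.95 and 5.52 against 2.16, 2.45 and 0.424, and AW047730, at 472, 9.6 and 10.1 against 3.24, 4.08 and 4.67, were high in control LPS 1 alone. What set these libraries apart was not tested.

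**Figure D5:**
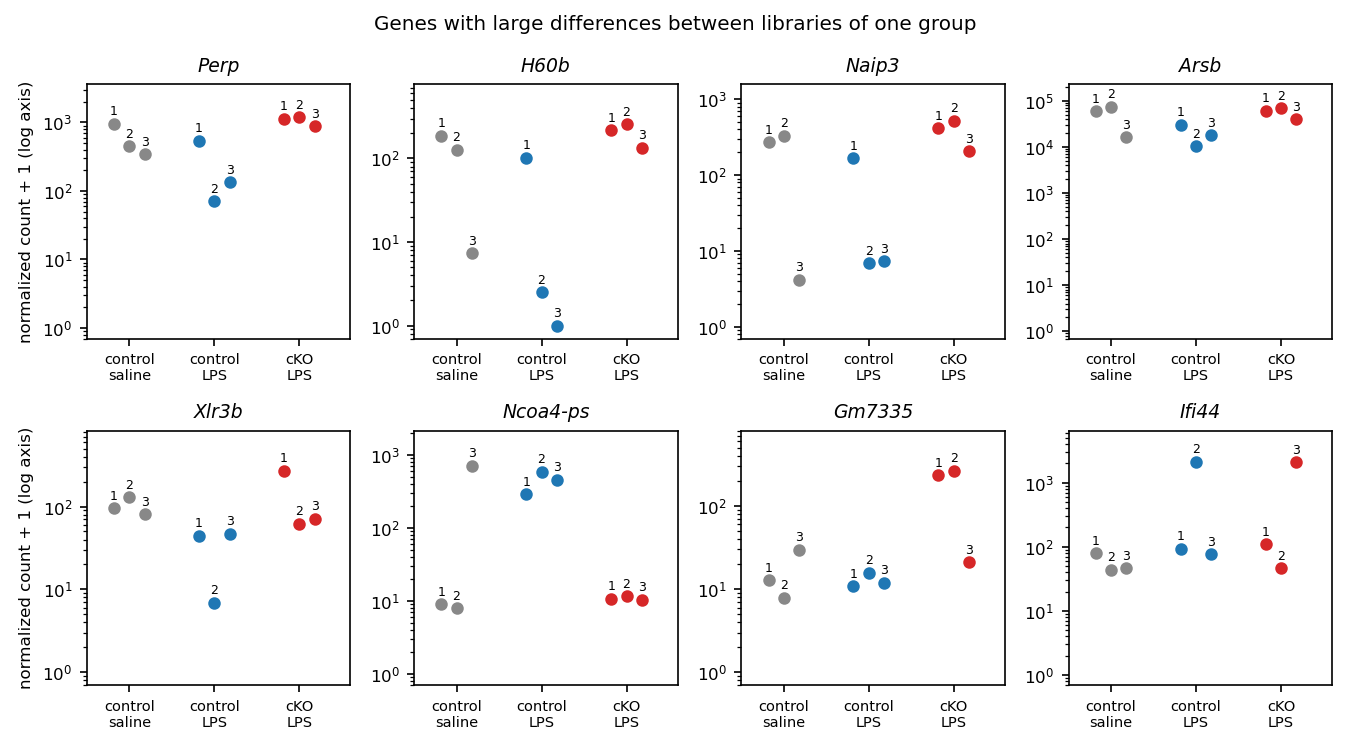
Normalized count + 1 (y axis, log scale) of 8 genes in each library, numbered within its group. In H60b, Naip3 and Arsb saline 3 and control LPS 2 and 3 are low, in Perp control LPS 2 and 3 are, in Ncoa4-ps saline 3 is high like control LPS, and in Ifi44 control LPS 2 and cKO LPS 3 stand alone.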

How the data were processed

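For 23134 genes in 9 libraries the authors deposited a normalized signal (counts scaled by size factors), and a table of the comparison with log2 fold changes, their standard errors as scores and p-values. The submitters' processing notes name mm10, STAR, featureCounts, RSEM, DESeq2, edgeR 3.30.3, Trimmomatic, FastQC and MultiQC 1.12, with no roles, annotation or use of strand. The library kit was stranded and for mRNA, per the labels' protocols. All deposited values (100%) equalled whole reads times a constant of their library, within 0.01 of a read, and these reads served as counts. DESeq2 on them matched the authors' table, with adjusted p equal within 1e-06 for 22785 of 22785 genes.

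Genes were tested with limma-trend (limma 3.58.1 in R 4.3.3) on log2(deposited value + 1) for the 16575 with a mean of at least 10 over the 9 libraries, 6 residual degrees of freedom, two-sided, with Benjamini-Hochberg adjustment over all of them and a threshold of 0.05. The lowest adjusted p was 0.9999. edgeR 4.0.16 (quasi-likelihood) and DESeq2 1.42.0 were alternatives on recovered reads. Other alternatives were TMM and quantile scaling, pseudocounts of 0.5 and 8, no filter and a mean of at least 50, the 6 LPS libraries only, array weights, a replicate block, and each library left out in turn. Positions are 1-based from RefSeq on GRCm38.p6, whose gene ends equalled those of the authors' table for 16575 of 16575 genes. Starts in the authors' table were 1 lower for 15724 of the 16575, so the extents of the remaining genes were not matched in this way. No replicate pair agreed within sampling noise (chi-square per degree of freedom 39.0 to 218).

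The libraries compared, the 38 gene lists (24 of pathways and states, 14 of cell types) and the genes to be named were chosen with earlier results of these data known. Named were, among genes with a mean of at least 50, no clone name and groups free of overlap, the 6 with the smallest p in each direction and the 6 largest differences in each direction that reached 1 log2 also without control LPS 1. Genes called in the authors' table, a panel of 16 genes and up to 4 members of each list by smallest p were added. Other names (Oas1a, Oas2, the signal components, Mcm2, Pcna, Ly6c2, Anxa1, Cd177, Ncoa4-ps, Ifi44 and further list members) were chosen after their values were seen.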

Additional observations from a re-analysis of the deposited data

How the results depend on the processing

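The count of genes called stayed at 0 in 18 of 22 alternatives. It was 1 with the 6 LPS libraries only and 4 with DESeq2 on the recovered reads. With DESeq2 on the recovered reads without control LPS 1 it was 139, and it ranged from 0 to 1 when single libraries were left out. Whether the replicate numbers pair the samples is not stated, and the values do not settle it. Deviations of control LPS and cKO LPS libraries of the same number correlated at 0.47, -0.07 and 0.22. Those of different numbers correlated at -0.40 to 0.31. A fit with a replicate block called 0 genes, and 411 had an unadjusted p under 0.05. The share of genes free of overlap ran from 10.5% to 19.3% when single libraries were left out, a step that frees genes of overlap by its construction.

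Of 109 named genes 95 kept their direction in all alternatives. With array weights the difference turned for Chd8 (-0.012), Aqp4 (0.34), Gfap (0.20), Apoe (-0.12), Mcm2 (-0.11) and Pcna (-0.13). Apoe also turned with quantile normalization (-0.00418), edgeR (-0.055) and DESeq2 (-0.058). With edgeR and DESeq2 without control LPS 1, in that order, the values were 0.49 and 0.48 for Slc1a2, 1.01 and 1.03 for Aqp4, 0.65 and 0.64 for Gfap and -0.35 and -0.35 for Apoe. When single libraries were left out the differences ran from -0.066 to 0.061 for Chd8, -3.66 to 0.53 for Slc1a2, -3.63 to 0.93 for Aqp4, -1.59 to 0.63 for Gfap, -0.24 to 0.19 for P2ry12, -0.083 to 0.022 for Tmem119, -0.31 to 0.43 for Apoe. They ran from -0.32 to 0.30 for Il1b, -1.06 to 0.20 for Lgals3, -0.069 to 0.35 for Eif2ak2, -0.023 to 0.55 for Ifi27l2a, -1.79 to 1.39 for Ifi44, -0.45 to 0.86 for Mcm2, -0.25 to 0.50 for Pcna.
The cause of these turns was not tested. The number of 3 libraries a group, and saline 3 with the fewest reads, limit what differences could be seen, and low genes are understated by the pseudocount.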

Other observations

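Genes through which microglia receive signals from astrocytes and cytokines had no common direction. Of 46 receptors the median difference was 0.02, with 28 positive and 18 negative, and 2 were higher without overlap against 2.7% of all genes. With control LPS 1 left out the median was -0.08, with 16 positive and 30 negative, and 3 were higher and 8 lower without overlap, against 8.73% and 10.6% of all genes. The 2 that were higher without overlap with all libraries were Il3ra and Lrp1. Il3ra, the receptor chain for the astrocyte-derived cytokine interleukin 3, stood at 309.8, 350.1 and 483 in control LPS against 503, 488 and 897 in cKO LPS (0.69, interval -0.01 to 1.39). Lrp1, a receptor for lipoproteins including apolipoprotein E, stood at 61100.4, 68598 and 63992 against 71479, 108143 and 71749.6 (0.35). For Il3ra cKO LPS 3 was the highest and control LPS 3 close to the other cKO libraries, and for Lrp1 cKO LPS 2 stood well above the rest. Il6st, the shared receptor chain of the interleukin 6 family, stood at 8484, 6483 and 9127 against 11513, 12676 and 7470, with groups that overlapped. Without control LPS 1 the differences were 0.55 for Il3ra, 0.31 for Lrp1 and 0.42 for Il6st. That of Il6st was 0.37 with all libraries. TGF-beta pathway genes lay at -0.03, or 0.04 without control LPS 1 (17 genes).

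Of the metabolic lists, glycolysis and hypoxia had a median of -0.11 (-0.21 without control LPS 1 and 0.01 in the highest of the fits leaving out 1 LPS library). Lower without overlap were 3 of 20, Vegfa, Aldoa and Pfkp, against 2.32% of all genes, and 6 of 20 without control LPS 1, against 10.6%. Vegfa, the vascular growth factor, stood at 3906, 639 and 325 in control LPS against 312, 285 and 202 in cKO LPS, so much of its difference of -1.83 came from control LPS 1 (-0.79 without it), and Pfkp, a phosphofructokinase, had the same arrangement at 1526, 714 and 629 against 488, 459.9 and 593 (-0.79, and -0.39 without it). Aldoa, an aldolase, stood at 16413, 18129 and 16572 against 13454, 13342 and 15399.8 (-0.28, and -0.30 without control LPS 1). Oxidative phosphorylation lay at -0.05, with 24 of 24 negative without control LPS 1 at a median of -0.17, and cytosolic ribosomal proteins at 0.04, with 25 of 25 negative then at -0.18. Medians with all libraries and without control LPS 1 were -0.06 and 0.05 for lipid and cholesterol genes, 0.03 and -0.07 for lysosomal genes and 0.06 and -0.07 for phagocytosis and Fc receptors, with opposite signs in all 3. They were -0.18 and -0.44 for alternative activation and -0.23 and -0.30 for immediate-early genes. The alternative activation median was 0.05 without control LPS 2, and the immediate-early one -0.05 without cKO LPS 3. CHD remodellers and other chromatin genes lay at 0.04 and 0.02, with 0 of 25 non-overlapping, against 5.01% of all genes.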
